A study of Mus musculus with 10 samples.

Results

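Semaphorins, ephrins, slits and netrins are ligands that steer migrating cells and growing cell processes, and plexins, Eph receptors, robos and Unc5 proteins are their receptors. The genes described here were 65 of the 24470 entries of a count table, chosen by gene symbol. They were 20 semaphorin, 9 plexin, 8 ephrin, 14 Eph receptor, 3 slit, 3 robo, 4 netrin and 4 Unc5 genes. No gene was kept or dropped for its values, but the group was proposed with results of this same contrast known. Its counts of changed genes are therefore a description, given with the shares of all genes called, and nothing was read from them. Testes joined to their mesonephroi came from 5 C57BL/6 mouse embryos at E12.5. The gonads of each embryo were split between treatments: 1 was held for 48 h in medium with 75 µM of a glycogen phosphorylase inhibitor, called GPI, and its partner in medium with the vehicle, DMSO. GPI blocks the enzyme that frees glucose units from stored glycogen. After culture each gonad was freed from its mesonephros, and RNA of the whole gonad with all of its cell types gave 1 library, so that 5 vehicle libraries were paired by embryo with 5 GPI libraries. Totals ran from 10203679 to 15635322 counts per library, and 16958 to 17915 entries had at least 1 count. Defining testis markers were present in all 10 libraries: Sox9 of Sertoli cells lay between 984 and 1545 normalized counts with vehicle and between 1494 and 2141 with GPI. The steroidogenic gene Hsd3b1 of fetal Leydig cells lay between 664 and 2973 with vehicle and between 3744 and 6916 with GPI, whereas the Leydig marker Insl3 had a mean of 1.2 ± 1.2 (SD) with vehicle and 2.9 ± 3.2 with GPI and was not tested. A normalized count is a count scaled by the library's size and TMM factor to the mean library.

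Guidance ligands were first studied for turning growth cones toward or away from their source, and the same pairs act between other cells. Semaphorins bind plexins, and the secreted ones mostly need neuropilins as co-receptors. Ephrins sit on the surface of a cell and meet Eph receptors on its neighbour, slits bind robos, and netrins bind Unc5 proteins as well as Dcc and neogenin. In the vasculature several of these genes mark cell types, such as ephrin-B2 on arteries, while plexin D1 and Unc5b act in endothelial cells. Slit and robo genes are also active in the gonad and in the adjoining kidney field of the embryo.

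Of the 65 guidance genes, 56 had enough counts to be tested. A gene was called when edgeR's quasi-likelihood test, paired by embryo, gave an adjusted p under 0.05 over all 13941 tested genes. Called were 24 guidance genes, 42.9% of those tested, beside 22.9% of all tested genes. Higher with GPI were 12 of the 56, or 21.4%, beside 11.1% of all tested genes, and lower were 12, the same share, beside 11.9%. The 5 GPI and 5 vehicle values of a gene did not overlap for 16 guidance genes, 28.6% of those tested, beside 16.1% of all tested genes; GPI lay above vehicle for 7 of them and below for 9, of which 1, Sema3b, was not called. The median log2 fold change was 0.07 over the tested guidance genes and 0.02 over all tested genes. The first ran from 0.01 to 0.07 over the other tools, scalings and filters, and with at least 10 counts in every library it was 0.011, beside 0.017 over all genes. Leaving out each embryo it ran from 0.03 to 0.10. Without embryo 1, whose GPI library stood apart in its levels of hypoxia genes, 26 guidance genes were called, and they included all 24. Over all 13962 genes tested without embryo 1, 1396 were called higher and 1686 lower.

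By family, beside the 11.1% of all tested genes called higher and 11.9% called lower, 5 semaphorins were called higher and 5 lower of 18 tested, and 2 plexins higher and 2 lower of 8. Among ephrins 1 was higher and 2 were lower of 7, and among Eph receptors 2 were higher and 2 lower of 12. The Eph genes called were Epha2 and Epha4, higher, and Ephb1 and Ephb3, lower. Of 2 robos tested 1 was higher, and of 4 Unc5 receptors 1 was higher and 1 lower. Called by edgeR were 0 of 2 slits and 0 of 3 netrins, and the counts were also 0 at an unadjusted p under 0.05 and with DESeq2 and limma-voom. Family medians of log2 fold change were 0.07 for semaphorins, -0.02 for plexins, 0.19 for ephrins and 0.27 for Eph receptors. They were 0.02 for slits, 0.38 for robos, -0.17 for netrins and -0.05 for Unc5 receptors, and the slit median became -0.03 when libraries were scaled by total counts only, where those of semaphorins and plexins were 0.02 and -0.07. Over the other tools, scalings and filters the lowest medians were -0.14 for slits, reached with no filter on low counts, 0.04 for Eph receptors, with at least 10 counts in every library, 0.07 for ephrins, with no filter, 0.28 for robos, with no filter, and -0.52 for Unc5 receptors, with at least 10 counts. Leaving out 1 embryo turned the sign of some medians, to -0.06 for semaphorins, 0.01 for plexins, -0.09 for slits, 0.03 for netrins and 0.02 for Unc5 receptors at the farthest. The lowest medians so reached were -0.12 for plexins and -0.29 for netrins. Those of ephrins ran from 0.07 to 0.30 and those of Eph receptors from 0.14 to 0.38. The plot of fold changes by family sets the 56 tested genes side by side.

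**Figure D1:**
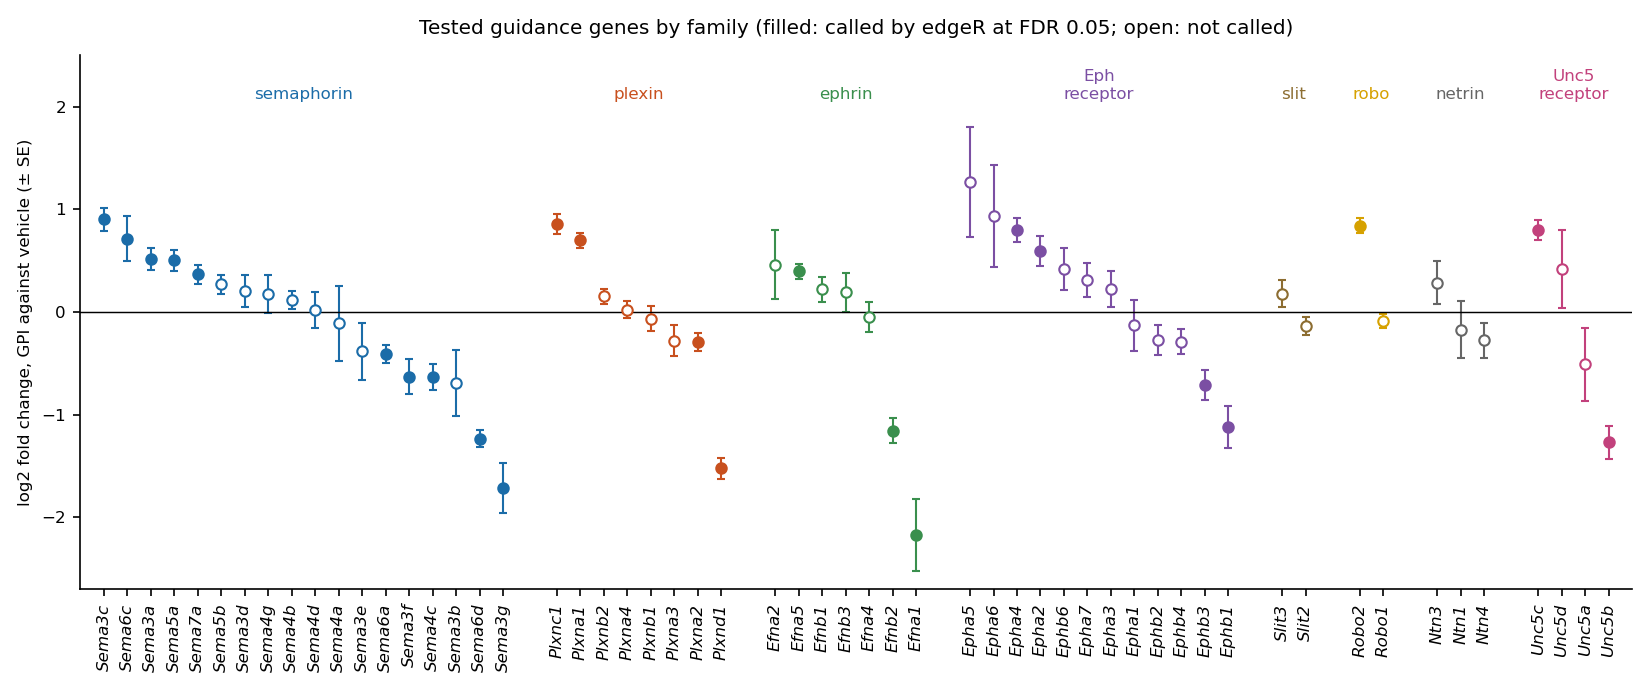
Log2 fold change of GPI against vehicle (± SE, vertical axis) for the 56 tested guidance genes, grouped by family along the horizontal axis; filled points are the 24 genes called by edgeR and open points were not called. Fold changes ran from -2.17 for Efna1 to 1.26 for Epha5, which was not called and was at 0.77 without embryo 4.

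Promoters of called genes that moved in opposite directions are printed so that their letters can be compared. Of the 65 genes, 56 had a promoter among the RefSeq sequences for GRCm38.p6 and 47 had one that began at the gene's start in the count table, and Plxna1 had no entry. The 6 shown were chosen after their values were seen, and each is the 250 bases before the start, 5′ to 3′ on the gene's strand. Capitals mark matches on either strand to GGGCGG (GC box), CGGAAG (core of ETS factors), TGGGAA (core of RBPJ) or ACGTG (core of hypoxia-inducible factors).
Sema6d, lower with GPI, chr2:124089719-124089968, plus strand: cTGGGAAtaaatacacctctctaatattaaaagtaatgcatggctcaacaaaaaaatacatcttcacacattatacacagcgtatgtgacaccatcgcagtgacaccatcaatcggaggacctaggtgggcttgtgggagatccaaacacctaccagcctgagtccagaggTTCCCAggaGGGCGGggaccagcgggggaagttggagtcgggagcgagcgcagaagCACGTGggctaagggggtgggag
Sema3g, lower, chr14:31217623-31217872, plus strand: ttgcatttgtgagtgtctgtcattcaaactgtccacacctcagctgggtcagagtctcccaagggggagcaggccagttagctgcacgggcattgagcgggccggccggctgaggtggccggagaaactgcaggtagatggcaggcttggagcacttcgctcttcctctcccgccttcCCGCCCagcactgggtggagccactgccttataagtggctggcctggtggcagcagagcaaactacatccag
Plxnd1, lower, chr6:115995006-115995255, minus strand: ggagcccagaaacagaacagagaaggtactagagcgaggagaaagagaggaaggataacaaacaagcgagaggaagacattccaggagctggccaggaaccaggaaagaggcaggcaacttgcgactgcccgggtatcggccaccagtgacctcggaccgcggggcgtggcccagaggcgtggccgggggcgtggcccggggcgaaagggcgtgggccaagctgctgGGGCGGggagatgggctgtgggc
Unc5b, lower, chr10:60831582-60831831, minus strand: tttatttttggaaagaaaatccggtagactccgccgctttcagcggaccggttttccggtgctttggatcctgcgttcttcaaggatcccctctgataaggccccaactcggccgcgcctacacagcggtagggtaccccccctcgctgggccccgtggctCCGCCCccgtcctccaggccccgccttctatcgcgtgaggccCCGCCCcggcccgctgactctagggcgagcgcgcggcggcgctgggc
Sema3c, higher, chr5:17574566-17574815, plus strand: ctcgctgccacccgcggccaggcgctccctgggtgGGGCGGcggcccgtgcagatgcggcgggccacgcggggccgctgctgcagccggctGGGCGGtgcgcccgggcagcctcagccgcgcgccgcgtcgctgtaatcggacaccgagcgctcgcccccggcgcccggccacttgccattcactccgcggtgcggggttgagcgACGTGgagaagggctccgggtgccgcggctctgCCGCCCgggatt
Unc5c, higher, chr3:141465314-141465563, plus strand: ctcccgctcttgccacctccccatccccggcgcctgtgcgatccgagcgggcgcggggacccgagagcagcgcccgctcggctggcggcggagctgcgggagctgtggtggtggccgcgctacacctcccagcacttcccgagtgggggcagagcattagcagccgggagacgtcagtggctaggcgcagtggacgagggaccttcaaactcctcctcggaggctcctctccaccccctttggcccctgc
In Sema6d there were 1 GC box, 2 RBPJ cores and 2 hypoxia cores, which overlap by 4 bases because the letters read alike on both strands. GC boxes numbered 1 in Sema3g, 1 in Plxnd1, 2 in Unc5b and 3 in Sema3c, and Sema3c also held 1 hypoxia core. None of the 4 motifs was found in the Unc5c window, and the ETS core was in none of the 6. Over the 32851 promoters of the reference, with the same 250 bases of each, 32.7% held the GC box, 13.6% the ETS core, 21.6% the RBPJ core and 16.6% the hypoxia core. G and C made up 52.4% of the Sema6d window, 60.4% of Sema3g, 64.8% of Plxnd1, 66.8% of Unc5b, 78.4% of Sema3c and 71.2% of Unc5c, with a median of 52.4% over all promoters. A match describes letters and shows no binding.

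Among the secreted semaphorins, Sema3c (Entrez 20348), a ligand that acts through neuropilins, had 1001, 1075, 946, 1012 and 994 normalized counts in the vehicle gonads of embryos 1 to 5. In the GPI gonads it had 1289, 1878, 2073, 2489 and 1866. Every GPI value lay above every vehicle value, with embryo 1 the lowest and embryo 4 the highest with GPI, and the log2 fold change was 0.90 ± 0.11 (SE, adjusted p = 5.07e-05). Sema3a (Entrez 20346), a repellent that binds neuropilin 1, had 518, 341, 392, 368 and 440.4 with vehicle and 602, 645, 566, 509 and 597 with GPI. The vehicle gonad of embryo 1 exceeded the GPI gonad of embryo 4, so the groups overlapped, while each GPI gonad exceeded its own partner. Its log2 fold change was 0.51 ± 0.11 (adjusted p = 0.00313). Opposite to these, Sema3g (Entrez 218877), a ligand made largely by endothelial cells, had 116, 76.4, 115, 136 and 139 with vehicle and 49.2, 31.6, 16.2, 40.0 and 43.6 with GPI. The groups did not overlap, the vehicle gonad of embryo 2 was lowest among its group and the GPI gonad of embryo 3 was the lowest of all. For Sema3g the log2 fold change was -1.72 ± 0.24 (adjusted p = 1.50e-04). The remaining called semaphorin, Sema3f, falls outside the naming rule and was singled out after its values were seen. This secreted ligand of neuropilin 2 lay between 122 and 179.8 with vehicle and between 62.1 and 128 with GPI (log2 fold change -0.63 ± 0.17, adjusted p = 0.0152). Without embryo 3 its adjusted p was 0.0755 and without embryo 4 it was 0.0663, in a range from 0.00786 over the alternatives.

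The guidance gene with the most counts over all 10 libraries, Sema5a (Entrez 20356), which with vehicle alone came after Sema6d, encodes a transmembrane semaphorin with thrombospondin repeats. Its vehicle values were 5102, 5156, 4907, 3393 and 4940.0 and its GPI values 5356, 6738, 6499, 6535 and 8119. The vehicle gonad of embryo 4 was far below the other 4, and all GPI values were above all vehicle values (log2 fold change 0.50 ± 0.10, adjusted p = 0.00264). Its relative Sema5b had the smallest adjusted p of the genes not called, with 1296, 2568, 1667, 1558 and 1886 in vehicle gonads and 1409, 2461, 1877, 2139 and 2952 in GPI gonads. The groups overlapped widely, and the lowest value of either treatment belonged to embryo 1. The log2 fold change of Sema5b was 0.27 ± 0.10 (adjusted p = 0.0612). Leaving out each embryo it ran from 0.17 to 0.35. Its adjusted p was 0.0338 with no filter on low counts and 0.0208 without embryo 2, in a range from 0.0208 to 0.331 over the alternatives.

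Sema6d (Entrez 214968), a transmembrane ligand of plexin A1, changed with the smallest adjusted p of the guidance genes. Vehicle gonads had 5999, 5812, 6164, 7076 and 6861 and GPI gonads 2589.9, 3057, 2406, 2588 and 2938. Each GPI gonad had less than the lowest vehicle gonad (log2 fold change -1.23 ± 0.08, adjusted p = 1.44e-07). Sema6a (Entrez 20358), a transmembrane ligand of plexins A2 and A4, had 2022, 1922, 1962, 1744 and 1737 with vehicle and 1765, 1558, 1263, 1124 and 1418 with GPI. The GPI gonad of embryo 1 reached above the vehicle gonads of embryos 4 and 5, and the log2 fold change was -0.41 ± 0.08 (adjusted p = 0.00273). Sema6c, the third transmembrane gene of this class to be tested, was the called guidance gene with the largest adjusted p and moved the other way. Its values were 58.7, 87.1, 74.8, 61.8 and 134 with vehicle and 88.4, 151, 144, 174 and 116 with GPI. Embryo 5 had its highest vehicle value, above its own GPI gonad, whereas GPI was higher in the other 4 embryos (log2 fold change 0.71 ± 0.22, adjusted p = 0.0324). The adjusted p of Sema6c was 0.05, rounded and just over the threshold, without pairing by embryo, 0.0863 without embryo 2, 0.127 without embryo 3 and 0.155 without embryo 4, in a range from 0.00651 over the alternatives, and at none of these settings was it called.

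Of the remaining membrane-bound semaphorins, Sema4c (Entrez 20353), a ligand of plexin B2, had 228, 159, 216, 245 and 242 with vehicle and 158, 104, 123, 145 and 174 with GPI. Only the vehicle gonad of embryo 2 fell within the range of the GPI gonads, and the log2 fold change was -0.63 ± 0.13 (adjusted p = 0.00251). Sema7a (Entrez 20361), held at the cell surface by a lipid anchor and a ligand of plexin C1, had 374, 517, 495, 646 and 572 with vehicle and 433, 775, 626, 892 and 668 with GPI. The groups overlapped, although every GPI gonad exceeded the vehicle gonad of its own embryo (log2 fold change 0.37 ± 0.09, adjusted p = 0.00983). For Sema7a the adjusted p was 0.126 without pairing by embryo and 0.0528 without embryo 4, in a range from 0.00757 over the alternatives.

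Plexins, the receptors of semaphorins, moved in both directions. Plxnd1 (Entrez 67784), the receptor of Sema3e on endothelial cells, had 2840.2, 2888, 2653, 3182 and 2808 normalized counts with vehicle. With GPI it had 1181, 1057, 979, 778 and 1031. The highest GPI value, in embryo 1, was below the lowest vehicle value, in embryo 3, and the log2 fold change was -1.52 ± 0.10 (adjusted p = 1.68e-07). Plxnc1 (Entrez 54712), the receptor of Sema7a, had 1869, 3072, 2378, 2347 and 2858 with vehicle and 3501, 4088, 4993, 5440.4 and 4583 with GPI. All GPI values were above the vehicle values, and embryo 1 was the lowest of both groups (log2 fold change 0.86 ± 0.10, adjusted p = 3.20e-05). Plxna1 (Entrez 18844), which answers Sema6d directly and secreted semaphorins together with neuropilins, had 979, 1221, 1116, 1278 and 1240.3 with vehicle and 1574, 1862, 1923, 2209 and 1896 with GPI. Its groups were also apart, again with embryo 1 lowest in each, and its log2 fold change was 0.70 ± 0.07 (adjusted p = 9.18e-06). Plxna2 (Entrez 18845), a receptor of Sema6a, had 927, 915, 1051, 950.3 and 939 with vehicle and 832, 819.6, 752, 652 and 865 with GPI. The groups did not overlap but lay close, and the vehicle gonad of embryo 3 was the highest (log2 fold change -0.29 ± 0.09, adjusted p = 0.032). The adjusted p of Plxna2 was 0.125 without embryo 3 and 0.153 without embryo 4, in a range from 0.0146 over the alternatives. The other 4 tested plexins were not called, with log2 fold changes from -0.28 for Plxna3 to 0.15 for Plxnb2.

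Among the ephrins, Efnb2 (Entrez 13642), a transmembrane ligand known from arterial endothelium, had the most counts. Vehicle gonads had 3170.2, 3410.4, 3390.2, 4175 and 3205 and GPI gonads 2028, 1692, 1623, 1219 and 1294. The groups were far apart, and embryo 4 held both the highest vehicle value and the lowest GPI value (log2 fold change -1.16 ± 0.12, adjusted p = 1.25e-05). Efna1 (Entrez 13636), a ligand with a lipid anchor, had few counts, with 52.0, 54.9, 43.5, 66.7 and 45.7 in vehicle gonads and 4.5, 17.8, 14.3, 12.6 and 9.8 in GPI gonads. It did not overlap between groups and had the largest fold change of the called guidance genes (log2 -2.17 ± 0.35, adjusted p = 4.41e-04). Efna5 (Entrez 13640), a lipid-anchored ligand of A-class receptors, had 1067, 1192, 1262, 1028 and 1127 with vehicle and 1361, 1496, 1697, 1251 and 1681 with GPI. A single pair of values overlapped, the vehicle gonad of embryo 3 and the GPI gonad of embryo 4, and the log2 fold change was 0.39 ± 0.07 (adjusted p = 0.00158).

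Of the receptor tyrosine kinases that bind them, Epha4 (Entrez 13838), which takes ephrins of either class, had 622, 351, 508, 473 and 361 with vehicle and 814, 837, 837, 876 and 610.2 with GPI. The highest vehicle gonad, of embryo 1, exceeded the lowest GPI gonad, of embryo 5, and the log2 fold change was 0.80 ± 0.11 (adjusted p = 1.56e-04). Epha2 (Entrez 13836), a receptor of A-class ephrins, had 136, 94.3, 116, 128 and 95.2 with vehicle and 169, 144, 179.7, 201 and 161 with GPI. Its groups did not overlap (log2 fold change 0.59 ± 0.14, adjusted p = 0.00813). Epha7 (Entrez 13841), another receptor of A-class ephrins and the Eph gene with the most counts, had 2240.1, 943, 1329.9, 1044 and 939 with vehicle and 1405, 1805, 1494, 1552 and 1359.8 with GPI. The vehicle gonad of embryo 1 was the highest of all 10, and it alone of the vehicle gonads exceeded any GPI gonad. Epha7 was not called (log2 fold change 0.31 ± 0.17, adjusted p = 0.22), but without embryo 1 its log2 fold change was 0.53 with an adjusted p of 0.00219, in a range up to 0.599 over the alternatives. In the B class, Ephb1 (Entrez 270190), a receptor of B-class ephrins, had 153, 206, 229, 228 and 151 with vehicle and 139, 82.7, 107, 66.3 and 61.0 with GPI. All GPI values were below the vehicle values, with embryo 1 highest among them (log2 fold change -1.12 ± 0.21, adjusted p = 0.00126). Ephb3 (Entrez 13845), of the same class, had 196, 310.3, 141, 144 and 235 with vehicle and 138, 218, 65.6, 102 and 119 with GPI. The GPI gonad of embryo 2 exceeded 3 vehicle gonads, yet every GPI gonad was below its own partner (log2 fold change -0.71 ± 0.15, adjusted p = 0.00298). Without pairing by embryo the adjusted p of Ephb3 was 0.1, in a range from 0.000657 over the alternatives.

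Slit2 (Entrez 20563), a secreted ligand of the robos, had 3573, 2543, 3055, 3098 and 3090.1 with vehicle and 2581, 3002, 2874, 2479 and 2988 with GPI. The groups overlapped, and the gene was not called (log2 fold change -0.14 ± 0.09, adjusted p = 0.328). Robo2 (Entrez 268902), one of its receptors, had 2039.7, 2091, 2569, 2234 and 2251 with vehicle and 3716, 3917, 3873, 4207 and 4283 with GPI. The lowest GPI value was well above the highest vehicle value, and neither group held a library apart from the rest (log2 fold change 0.84 ± 0.07, adjusted p = 1.84e-06). Robo1, the other receptor tested, lay between 2648 and 2816 with vehicle and between 2187 and 2879 with GPI and was not called (log2 fold change -0.09 ± 0.07, adjusted p = 0.428). Slit3 was not called either (log2 fold change 0.18 ± 0.13, adjusted p = 0.39). Leaving out each embryo, the log2 fold change ran from -0.23 to -0.07 for Slit2, from -0.14 to -0.03 for Robo1 and from 0.06 to 0.26 for Slit3, and none of them was called.

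Among the netrins, Ntn4 (Entrez 57764), a laminin-related secreted protein of basement membranes, had the most counts, with 165, 295, 179.8, 212 and 140.2 in vehicle gonads and 112, 171, 144, 195 and 184 in GPI gonads. The groups overlapped, with the highest value in the vehicle gonad of embryo 2, and Ntn4 was not called (log2 fold change -0.28 ± 0.17, adjusted p = 0.272). Its log2 fold change ran from -0.45 without embryo 5 to -0.14 without embryo 2. Ntn1, the founding ligand of Unc5 receptors, lay between 34.6 and 51.4 with vehicle and between 22.1 and 60.9 with GPI (log2 fold change -0.17 ± 0.28, adjusted p = 0.728), and without embryo 4 its log2 fold change was 0.03. The Unc5 receptors moved in opposite directions. Unc5b (Entrez 107449), the form found on endothelial cells, had 1463, 918, 1394, 1855 and 1766 with vehicle and 649, 661, 343, 819.6 and 611 with GPI. The lowest vehicle gonad, of embryo 2, was above the highest GPI gonad, of embryo 4, and the log2 fold change was -1.27 ± 0.16 (adjusted p = 5.60e-05). Unc5c (Entrez 22253), best known from migrating neurons, had 2325, 1611, 1811, 1933 and 1686 with vehicle and 3399, 3458, 3182, 2712 and 3472 with GPI. Its GPI values were all above its vehicle values, and embryo 4 was the lowest with GPI (log2 fold change 0.80 ± 0.09, adjusted p = 3.25e-05). Unc5a and Unc5d had at most 26.9 and 53.2 normalized counts in a library and were not called.

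**Figure D2:**
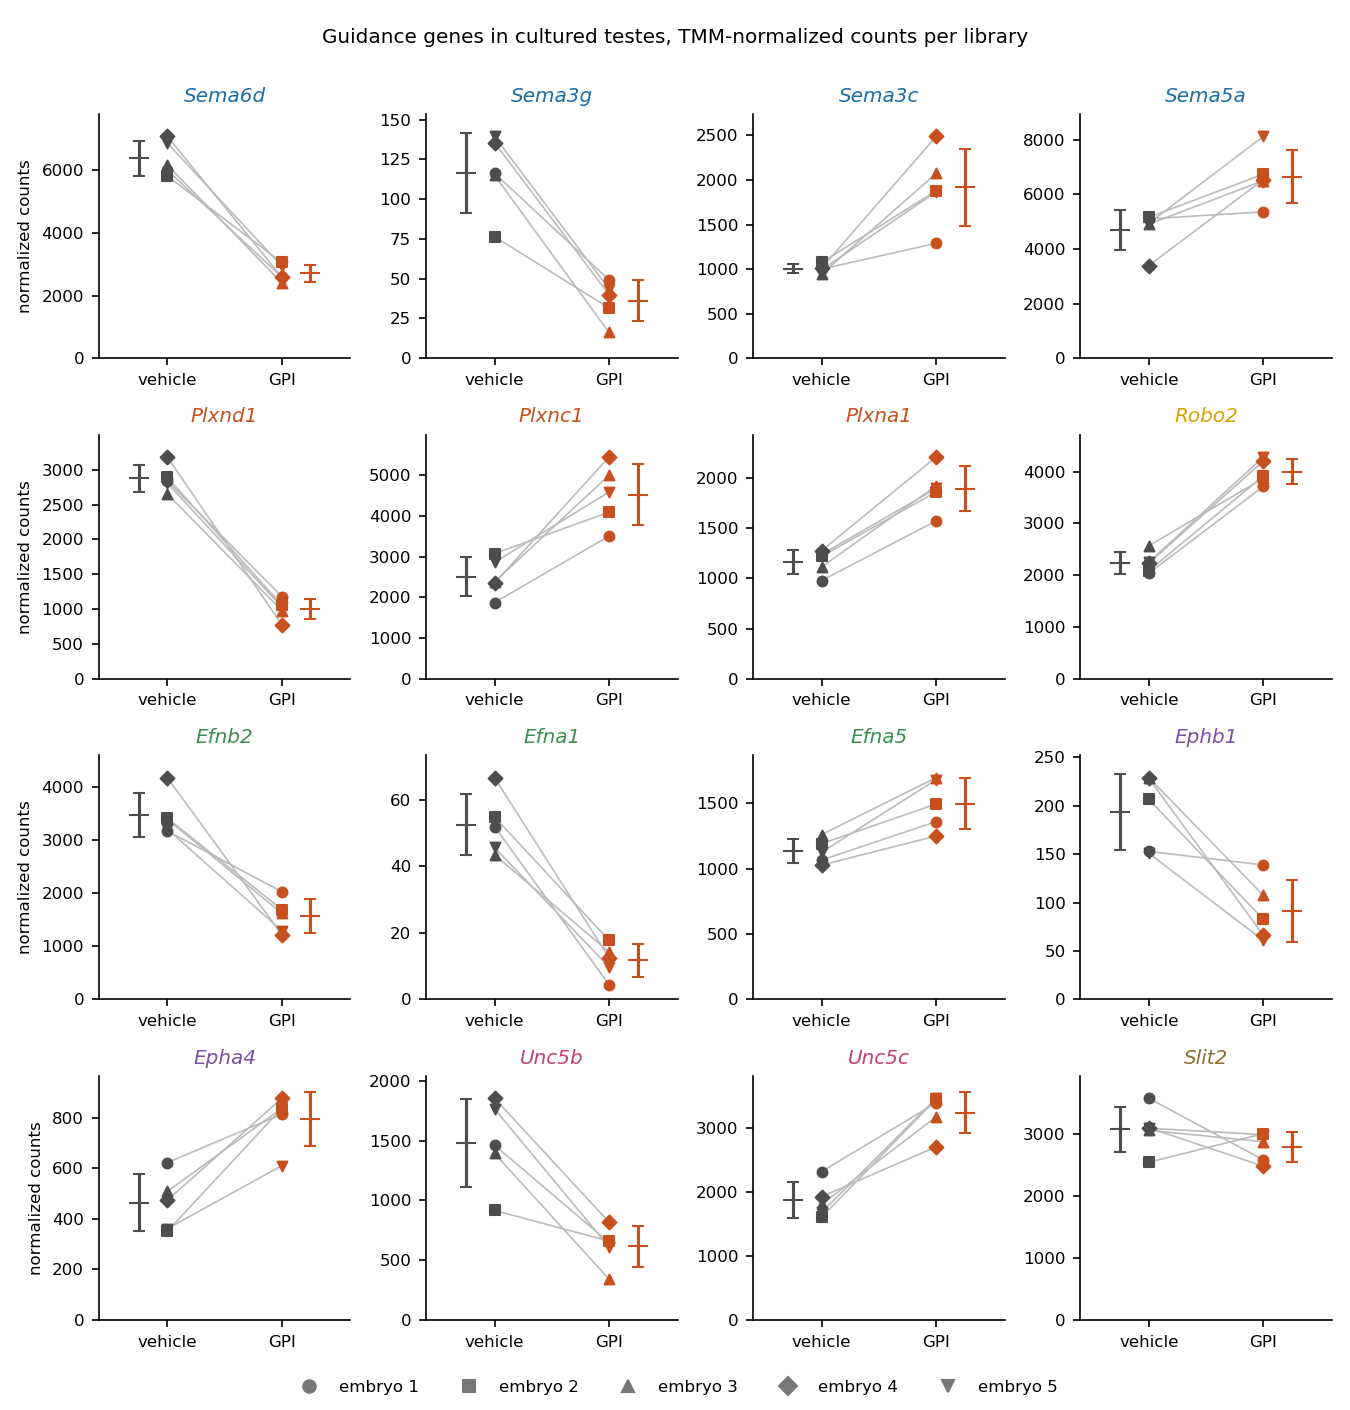
Normalized counts (vertical axes, from 0) of 16 guidance genes in the 5 vehicle and 5 GPI libraries, with a marker shape per embryo, a line joining the gonads of an embryo, and bars for the mean ± SD. Sema6d lay between 2406 and 3057 with GPI, below its vehicle values, while Robo2 lay between 3716 and 4283, above its vehicle values.

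Ligands and receptors known to bind each other were then set side by side, as differences on the log2 scale; partners outside the naming rule were chosen for their known binding after values were seen. Sema6d changed by -1.23 and its receptor Plxna1 by 0.70, in opposite directions and both called. Sema7a changed by 0.37 and its receptor Plxnc1 by 0.86, both higher. Sema6a changed by -0.41 and its receptor Plxna2 by -0.29, both lower. Its other receptor, Plxna4, changed by 0.02 and was not called (adjusted p = 0.874), at -0.05 to 0.06 leaving out each embryo. For Plxnd1 at -1.52, the ligand Sema3e was not called (log2 fold change -0.39 ± 0.28, adjusted p = 0.376) and had its highest value, 132, in the vehicle gonad of embryo 1. Sema3e ran from -0.69 without embryo 3 to -0.22 without embryo 5. Sema4c at -0.63 faced Plxnb2 at 0.15, which was not called and ran from 0.10 to 0.19 leaving out each embryo. Efnb2 at -1.16 faced Ephb4 at -0.29, also not called (adjusted p = 0.119), and Slit2 at -0.14 faced Robo2 at 0.84. Among other receptors of B-class ephrins, Ephb1 at -1.12 and Ephb3 at -0.71 were called lower and Epha4 at 0.80 was called higher. Robo1 was at -0.09 and not called. These pairs show RNA on each side in the same gonads and do not show which cells made it.

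Within single embryos, 23 of the 24 called genes changed the same way in all 5 pairs of gonads; the exception was Sema6c. These genes were called by a test paired on the same embryos, so their agreement is a description and adds no support. Of all tested guidance genes 51.8% moved the same way in 5 embryos, beside 30.6% of all tested genes. The size of the change differed between embryos. For the 12 genes called higher, the median log2 ratio of GPI to vehicle gonad was 0.38 in embryo 1, 0.69 in embryo 2, 0.67 in embryo 3, 0.84 in embryo 4 and 0.70 in embryo 5. For the 12 called lower it was -0.58, -0.77, -1.07, -1.31 and -1.25 in the same order. Embryo 1 was thus nearest to 0 in both sets, and embryo 4 was farthest in both. Whether the embryos differed was not tested.

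**Figure D3:**
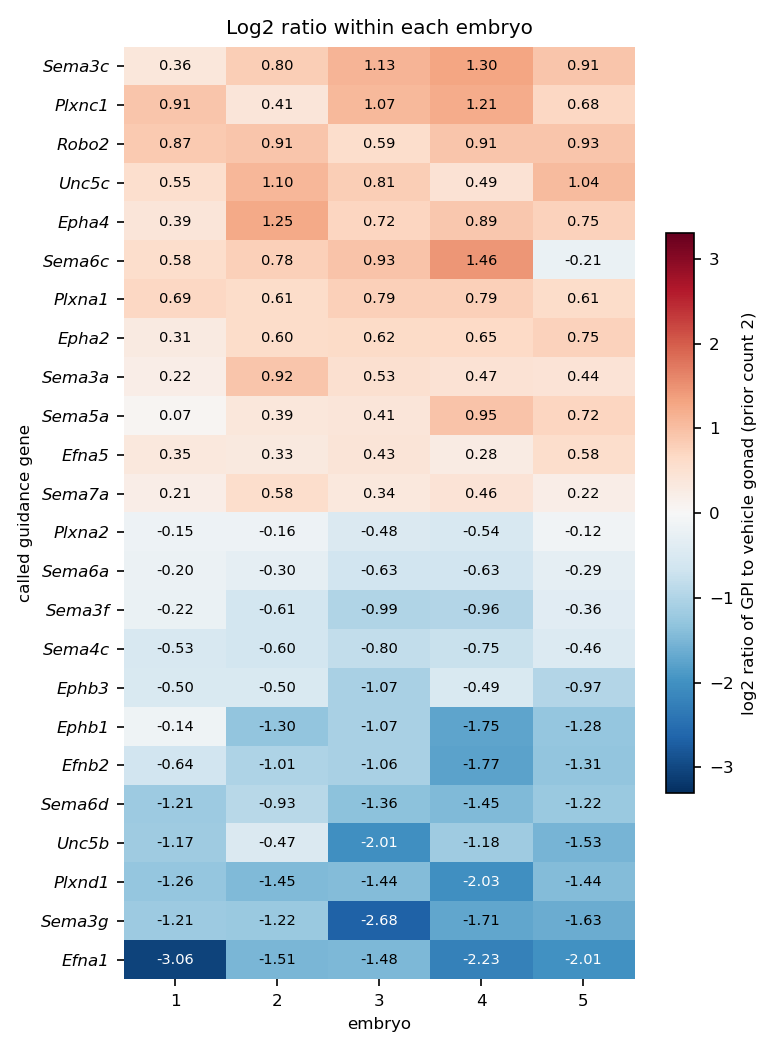
Log2 ratio of the GPI to the vehicle gonad (colour and printed value) of the 24 called guidance genes (vertical axis) in each of 5 embryos (horizontal axis), computed with a prior count of 2. Signs are alike across a gene's embryos except for Sema6c, which is below 0 in embryo 5.

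To compare levels between genes, normalized counts were divided by exon length and given as RPKM, a read count per exon length and library size. Counts were of RefSeq genes, while lengths were of all exons in GENCODE M21. Orders and shares thus depend on lengths that may not match the genes counted. With vehicle the highest levels were Sema6d at 49.0 ± 4.26 (mean ± SD, n = 5), Efnb2 at 41.0 ± 4.83, Plxnd1 at 31.9 ± 2.15, Plxnc1 at 24.3 ± 4.58 and Efna5 at 22.8 ± 1.89. Neighbours in this order whose SDs overlapped were Sema6d and Efnb2, and Plxnc1 and Efna5. With GPI the order was Plxnc1 at 43.9 ± 7.37, Efna5 at 30.1 ± 3.94, Sema5a at 28.9 ± 4.27, Sema5b at 24.8 ± 6.68, Sema3c at 21.8 ± 4.92 and Sema6d at 20.9 ± 2.08, where the SDs of neighbours from Efna5 on overlapped. As a share of the summed RPKM of all plexins, Plxnd1 went from a mean of 30.8% (29.5% to 33.6% by library) with vehicle to 10.3% (7.46% to 12.9%) with GPI. Plxnc1 went from 23.4% (18% to 27.4%) to 39.9% (33.3% to 45.6%), so that the leading plexin RNA changed from Plxnd1 to Plxnc1. Among Unc5 receptors, Unc5b went from 68.5% (62.0% to 74.7%) to 35.5% (24.0% to 46.8%) and Unc5c from 29.3% (23.3% to 35.6%) to 62.1% (50.6% to 72.7%). Before division by length (6258 bases for Unc5b and 19135 for Unc5c), Unc5c already had more normalized counts with vehicle. Its vehicle mean was 1873, against 1479 for Unc5b. Among ephrins, Efnb2 went from 48.6% (42.9% to 56.7%) to 26.9% (22% to 33.4%) and Efna5 from 27.1% (23.7% to 29.9%) to 43.8% (38.1% to 48.5%). Robo2 went from 44.1% (41.6% to 48.5%) of the summed RPKM of Robo1, Robo2 and Robo3 to 60.0% (55.6% to 65.6%), past Robo1. Robo4 falls outside the symbol rule and was not in that sum. In none of these families did the shares of a named gene overlap between treatments. The shares are a description and were not tested.

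**Figure D4:**
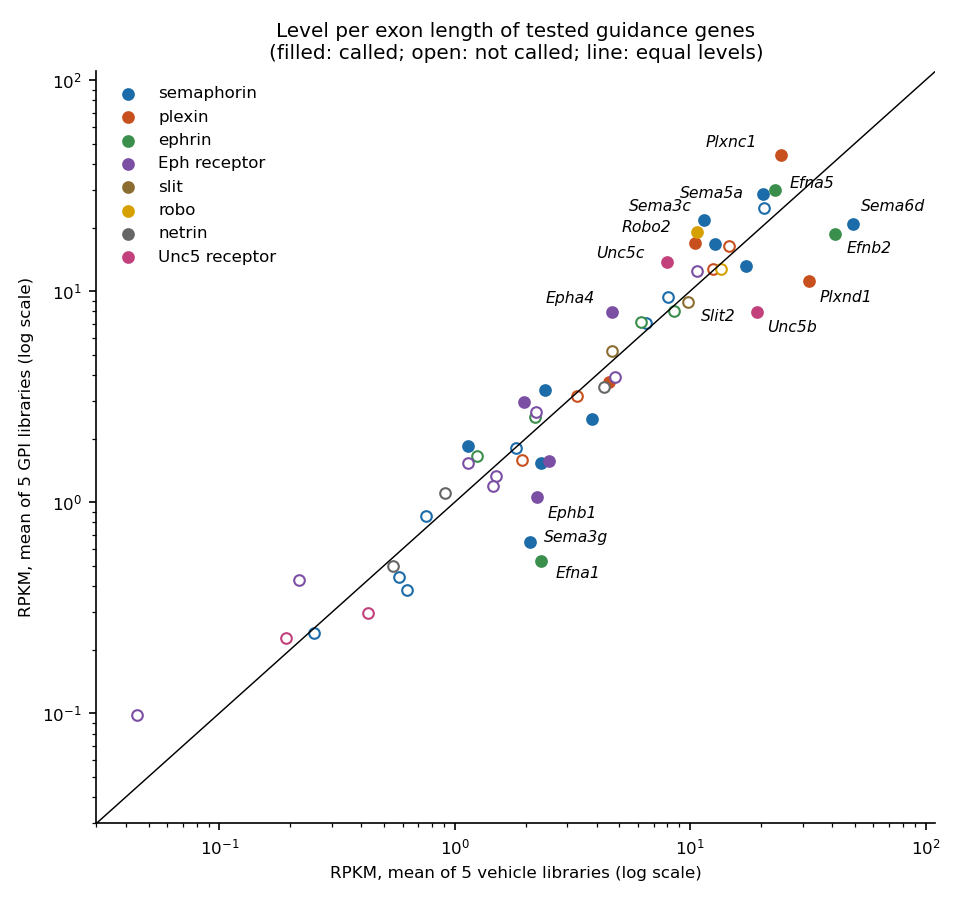
Level per exon length (RPKM, mean of 5 libraries) of the tested guidance genes with vehicle (horizontal axis) and GPI (vertical axis), both on log scales and coloured by family; filled points were called and the line marks equal levels. Plxnc1 was highest with GPI at 43.9 and Sema6d with vehicle at 49.0.

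Several guidance genes are known from blood vessels, so lists of marker genes were set beside them. All 14 endothelial markers were lower with GPI, beside 11.9% of all tested genes, with a median log2 fold change of -3.04, and none of them was without counts in all libraries. Their summed level was 10692, 10930.3, 10538, 11836 and 10975 normalized counts in the vehicle gonads of embryos 1 to 5 and 1388, 1641, 1115, 869 and 1032 in the GPI gonads, 11% of the vehicle mean. The most abundant over all libraries, though below Kdr and Erg with GPI, was Cdh5, an adhesion protein of endothelial junctions, which went from 2827 ± 220.4 to 232 ± 63.3 (mean ± SD, log2 fold change -3.63 ± 0.12, adjusted p = 3.76e-10). Pecam1 changed by -4.16 ± 0.15 and Tek, an angiopoietin receptor, by -2.28 ± 0.24. Single endothelial markers ran from -5.18 for Flt1 to -1.70 for Eng, with Sox18 at -1.95, and the guidance genes Efna1 (-2.17) and Sema3g (-1.72) lay within that range, while Plxnd1 (-1.52), Unc5b (-1.27) and Efnb2 (-1.16) lay nearer to 0. Ephb4, the receptor set beside Efnb2 above, changed by only -0.29 ± 0.12 and was not called (adjusted p = 0.119). In RNA of a whole gonad, fewer cells of a type and less RNA per cell cannot be told apart. The part of the endothelial markers in the guidance results was not tested.

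Beside the same 11.9%, markers of pericytes and smooth muscle gave 5 lower of 9 tested (median -0.82), and their sum lay between 5744 and 6590.5 with vehicle and between 2710.3 and 3604 with GPI. Pdgfrb, the growth factor receptor of pericytes and their most abundant marker with vehicle, though not with GPI, changed by -1.55 ± 0.09 (adjusted p = 5.96e-08), and Rgs5 by -4.32 ± 0.29, whereas Acta2 changed by -0.12 ± 0.11 and was not called, at -0.27 without embryo 1 and -0.03 without embryo 2. For hypoxia and vascular growth genes, 7 of 8 were lower with pairing by embryo, but 2 without it. Only 2 of the 8 changed the same way in all 5 embryos. Their sum was 11928, 11228, 9131, 8687 and 10867 with vehicle and 16580.1, 5151, 3478, 3517 and 4378 with GPI, so that the GPI gonad of embryo 1 stood apart above all others. Vegfa, the most abundant of them and the main growth factor of endothelial cells, changed by -1.02 ± 0.24 (adjusted p = 0.00648), by -0.67 without pairing (adjusted p = 0.216, the largest over the alternatives, the smallest being 2.46e-08) and by -1.41 without embryo 1. Without that embryo the guidance genes called numbered 14 higher and 12 lower, beside 1396 higher and 1686 lower of all 13962 genes tested there. The part of these lists in the guidance results was not tested.

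Lists for other cells of the testis were set beside them as well, with 11.1% of all tested genes called higher and 11.9% lower. Sertoli cell markers gave 8 higher of 12 tested (median 0.57), with Aard the most abundant and a sum between 3939 and 6301 with vehicle. With GPI the sum was 4550.8 in embryo 1, within the vehicle values, and between 8279 and 10777 in the other 4. The 4 Sertoli markers not called were Amh (log2 fold change 0.08 ± 0.22, adjusted p = 0.842), Sox10 (0.28), Cst9 (-0.19) and Fgf9 (-0.33). Fetal Leydig cell markers gave 6 higher of 7 tested (median 1.66), with Hsd3b1 the most abundant with vehicle and Cyp11a1 with GPI, and a sum between 1686 and 5818 with vehicle and between 10699.7 and 19401 with GPI. Germ cell markers gave 8 lower of 10 tested (median -3.67), with a sum between 1718 and 3440.1 with vehicle and between 761 and 1019.7 with GPI. Most of that sum with GPI came from Kit, the most abundant of the list, which was not called and went from a mean of 857 to 771 (log2 fold change -0.16 ± 0.09, -0.24 to -0.09 leaving out each embryo, adjusted p = 0.243). Markers of interstitial progenitors gave 1 higher and 3 lower of 10, with 1 lower without embryo 2, 0 lower without embryo 3 or 4 and 2 higher without embryo 1. Their sum lay between 17815 and 20534 with vehicle and between 17604 and 21145 with GPI, with Pdgfra the most abundant. The part of these markers in the guidance results was not tested either.

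**Figure D5:**
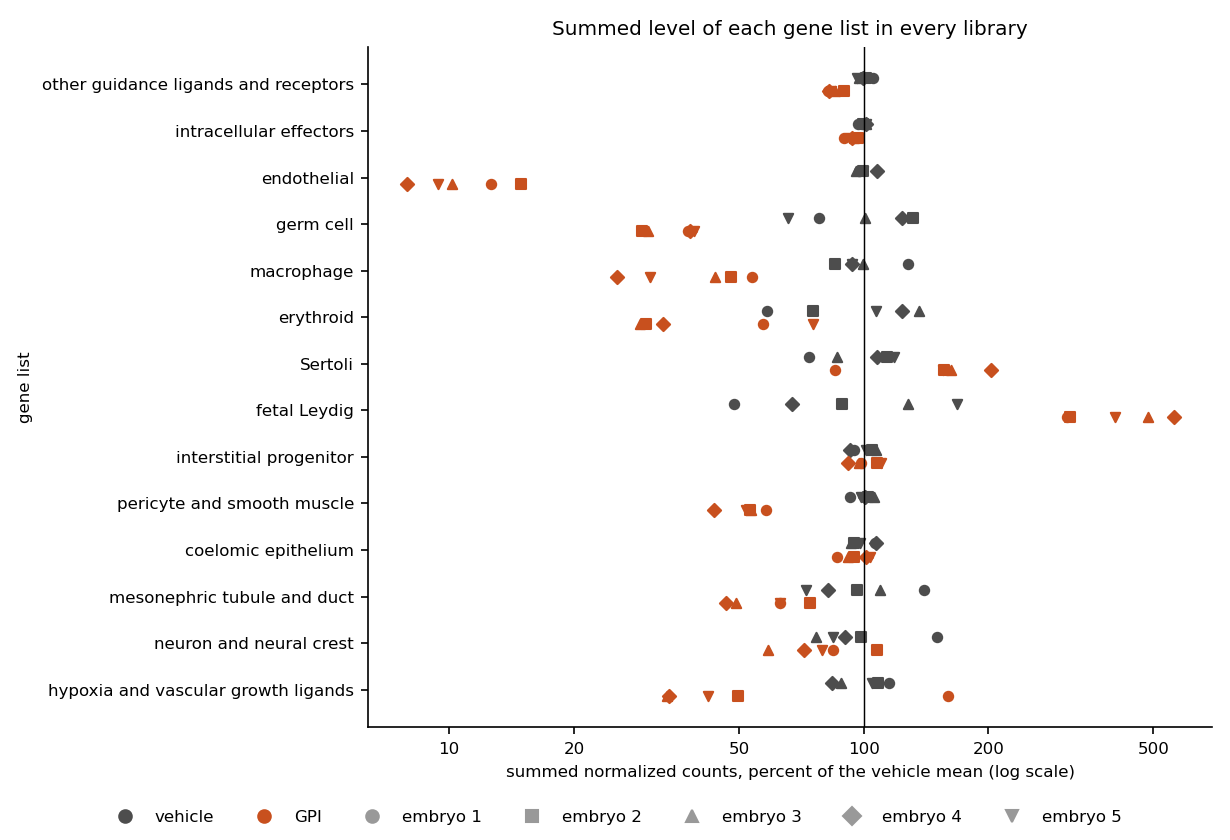
Summed normalized counts of 14 gene lists (vertical axis) in each library, as a percentage of the vehicle mean of the list (horizontal axis, log scale), with vehicle and GPI libraries in different colours. The endothelial list fell to 11% of its vehicle mean, and the hypoxia list of the GPI gonad of embryo 1 lay apart from the other GPI gonads.

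Guidance genes that the symbol rule leaves out were taken from a list of 24 ligands, receptors and co-receptors, of which 19 were tested. Called higher was 1 of the 19, beside 11.1% of all tested genes, and lower were 7, beside 11.9% (median -0.23). Nrp1 (2763 ± 253 with vehicle and 1530.1 ± 75.6 with GPI, mean ± SD) and Nrp2 (760.2 ± 95.8 and 372 ± 65.0), the neuropilins that secreted semaphorins need, changed by -0.85 ± 0.08 (adjusted p = 5.00e-06) and -1.04 ± 0.10 (adjusted p = 7.55e-06). Both were thus lower beside a higher Sema3c and Sema3a and a lower Sema3g and Sema3f. Robo4, the robo of endothelial cells, changed by -2.12 ± 0.21 (adjusted p = 7.35e-06), against the higher Robo2. Sdc3, a heparan sulfate proteoglycan of the cell surface, changed by -1.69 ± 0.14 (adjusted p = 1.20e-06), and the most abundant gene of the list with vehicle, the integrin Itgb1, by -0.62 ± 0.07 (adjusted p = 1.58e-05). The only gene of the list called higher was Neo1, which encodes the netrin receptor neogenin and was singled out after its values were seen (log2 fold change 0.56 ± 0.07, adjusted p = 7.87e-05). Dcc, the other netrin receptor of the list, had 24.7 ± 7.1 normalized counts with vehicle and 41.3 ± 21.8 with GPI and was not called (adjusted p = 0.183). Without embryo 1 or embryo 2, 2 genes of the list were called higher.

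Inside the cell, 33 of 34 effectors of guidance receptors were tested, of which 4 were called higher, about the 11.1% of all tested genes, and 12 lower, beside 11.9% (median -0.24). Of the 5 collapsin response mediators, which carry semaphorin signals to microtubules, 3 were called lower: Dpysl3 changed by -0.87 ± 0.08 (adjusted p = 5.90e-06), Dpysl5 by -0.63 ± 0.17 (adjusted p = 0.0145) and Crmp1 by -2.18 ± 0.32 (adjusted p = 1.89e-04). Dpysl2 changed by 0.01 ± 0.07 and Dpysl4 by 0.18 ± 0.24, and neither was called; the sign turned without embryo 3, 4 or 5 for Dpysl2 and without embryo 2 for Dpysl4. Dpysl5 and Crmp1 were added after values were seen, and the adjusted p of Dpysl5 was 0.0667 without embryo 3 and 0.0709 without embryo 4, in a range from 8.95e-04 over the alternatives. Ablim1, an actin-binding protein, changed by -1.30 ± 0.11 (adjusted p = 1.26e-06). The lowest log2 fold change of the list was that of Arhgef15, at -3.83 ± 0.33 (adjusted p = 2.05e-06). The 4 higher genes were Tiam1, an exchange factor for Rac (log2 fold change 0.73 ± 0.08, adjusted p = 2.45e-05), Mical3 (0.58 ± 0.08, adjusted p = 1.29e-04), Enah (0.40 ± 0.07, adjusted p = 5.39e-04) and Rnd2 (1.08 ± 0.35, adjusted p = 0.0424). Mical3, which encodes an oxidase that acts on actin, Enah, which encodes a protein of actin filament ends, and Rnd2, which encodes a small GTPase that binds plexins, were singled out after their values were seen. Rnd2 was not called with DESeq2 (adjusted p = 0.0695), with total counts only (0.0535), without embryo 2 (0.0893), 3 (0.0651), 4 (0.168) or 5 (0.149), over a range from 0.0204.

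The 9 guidance genes with too few counts to test were Sema4f, Sema6b, Plxnb3, Efna3, Epha8, Epha10, Slit1, Robo3 and Ntn5. They had 0 to 28 counts in a library and 8 to 110 in all 10 together, and the filter on low counts set them aside untested. With no such filter, the only guidance gene newly called was Sema5b. Of the 32 tested genes not called, 18 had a log2 fold change above 0 and 14 below, and Sema4d and Plxna4 changed side when libraries were scaled by total counts only. Counting took no account of strand, so reads from bases that genes share cannot be assigned by strand. Overlaps were looked for among exons of GENCODE M21, while the counts were of RefSeq genes. By the GENCODE exons, 5 guidance genes, Epha1, Epha10, Ntn3, Ntn5 and Unc5a, share bases with another entry, and none of the 24 called genes does.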

How the data were processed

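Read pairs were aligned by the authors to mm10 with STAR, and they deposited counts per RefSeq gene from featureCounts of Subread 1.5.0-p1, without strand. The 10 columns of counts were used as deposited, and 0 other columns of values were found. Libraries were made from amplified RNA, so counts are not independent molecules. Genes passing edgeR's filterByExpr (minimum count 10, minimum total 15) numbered 13941. They were fitted with TMM scaling, embryo and treatment in quasi-likelihood models, and p was adjusted after Benjamini and Hochberg over all of them, with a threshold of 0.05. Pairing comes from the labels, since same-numbered gonads share an embryo; deviations from the treatment mean correlated within embryos by 0.06 on average (-0.04 to 0.16). Exon lengths came from GENCODE M21 and promoters from RefSeq for GRCm38.p6. The gene group and all lists were chosen with earlier results of these data known. Named one by one were, per family, up to 4 called genes per direction with the smallest adjusted p, values in every library given, and the gene with the most counts. The called gene with the largest and the uncalled gene with the smallest adjusted p were named too. Of each other list, the first 3 genes and up to 4 called genes with the smallest adjusted p could be named. Some further genes, such as Robo1, Slit3, Ntn1 and Dcc, were named outside these rules. Alternatives were DESeq2, limma-voom, no pairing, scaling by total counts or by DESeq2 size factors, no filter on low counts, a filter of 10 counts per library, and each embryo left out. Versions were R 4.3.3, edgeR 4.0.16, DESeq2 1.42.0, limma 3.58.1, Python 3.11.15, pandas 2.3.3 and matplotlib 3.10.9.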

Additional observations from a re-analysis of the deposited data

Results flagged for a closer look

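In each treatment, the 5 libraries were examined for 1 value far from the others, by its gap to the nearest value as a part of the whole range. This was done for 158 groups of values, and 11 held such a library. Chance gives about 1 in 20 groups. In normalized counts, Sema3b had 15.4 in the GPI gonad of embryo 2, with the others between 23.5 and 25.3. Sema3e had 131.8 in the vehicle gonad of embryo 1, with the others between 44.2 and 55.8. The vehicle gonad of embryo 4 had 3392.7 for Sema5a, against 4906.6 to 5156.1, and 4174.6 for Efnb2, against 3170.2 to 3410.4. The vehicle gonad of embryo 3 had 1050.8 for Plxna2, with the others between 915.2 and 950.3. Plxnb2 stood at 1627.7 in the vehicle gonad of embryo 1, against 1284.2 to 1377.0. In the vehicle gonad of embryo 2, Efna4 had 298.3, against 127.5 to 142.8, and Epha1 had 124.1, against 50.2 to 70.9. Epha4 had 610.2 in the GPI gonad of embryo 5, with the others between 813.7 and 876.4. For sums of genes, the netrins had 211.5 in the GPI gonad of embryo 1, against 272.9 to 296.4. The hypoxia and vascular growth genes had 16580.1 in the same gonad, against 3478.4 to 5151.3. Without embryo 1, 26 guidance genes were called, beside 1396 genes called higher and 1686 called lower of all 13962 tested there.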

How the results depend on the processing

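Over 12 alternative settings, called guidance genes gave 287 values, of which 276 kept direction and call, 11 were past the threshold no more and 0 turned. Between 20 and 26 guidance genes were called, and 18 of the 24 kept their call at every setting. Over all tested genes, 969 to 1601 were called higher and 1287 to 1972 lower at these settings. The same 24 genes were called with DESeq2, limma-voom, DESeq2 size factors and total counts only. Without the replicate block, 3 calls ended, those of Ephb3, Sema6c and Sema7a; called higher were 10 guidance genes and called lower 11, with 3 semaphorins higher, 1 Eph receptor lower and 2 hypoxia genes lower, and the block changed no other call of a guidance gene. With no filter on low counts the robo median was 0.28 and 2 neuron and neural crest genes were lower. With at least 10 counts in every library, Efna1 was not tested, so that 1 ephrin was lower, and the Unc5 median was -0.52, with 2 germ cell, 5 macrophage, 1 mesonephric and 0 neuron and neural crest genes lower; fewer genes were tested there. DESeq2 gave 2 neuron and neural crest genes lower and total counts only gave 1 coelomic gene lower. Leaving out each embryo, the genes called higher in all numbered 969 to 1430, the Unc5 median ran from -0.20 to 0.017, and semaphorins higher numbered 3 to 6, plexins lower 1 to 2 and other guidance genes higher 1 to 2. Interstitial progenitor genes numbered 1 to 2 higher and 0 to 4 lower, coelomic genes 0 to 2 higher, and neuron and neural crest genes 1 to 2 lower. Among uncalled guidance genes, 381 values were 4 times newly past the threshold and 10 times turned in sign. Turned log2 fold changes, list genes included, were -0.016 for Sema4d without the replicate block, and with total counts only -0.032 for Sema4d, -0.028 for Plxna4 and -0.042 for Dpysl2. Dpysl2 also turned to -0.0005 with DESeq2 size factors and -0.0014 with at least 10 counts. Leaving out each embryo, ranges that crossed 0 were -0.14 to 0.039 for Efna4, -0.27 to 0.13 for Epha1, -0.30 to 0.031 for Ntn1, -0.046 to 0.062 for Plxna4, -0.14 to 0.18 for Sema4d, -0.028 to 0.051 for Dpysl2, -0.042 to 0.31 for Dpysl4, -0.093 to 0.086 for Angpt2 and -0.12 to 0.29 for Amh. The cause was not tested. Genes with few counts, such as Efna1, had the widest standard errors among called genes, and 5 pairs of gonads from whole tissue limit which differences could be called.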

Other observations

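Other lists were read beside the guidance genes, with 11.1% of all tested genes called higher and 11.9% lower. Macrophage markers gave 8 lower of 9 tested (median -1.91), with Ptprc the most abundant with vehicle and Cd68 with GPI, and a sum between 705 and 1054 normalized counts with vehicle and between 210.5 and 444 with GPI. Csf1r, a macrophage growth factor receptor, changed by -2.22 ± 0.21 on the log2 scale (adjusted p = 5.35e-06). Erythroid genes gave 6 lower of 8 (median -1.38), with a sum between 1861 and 4310.3 with vehicle and between 919 and 2400.4 with GPI, and their most abundant gene, the embryonic globin Hbb-y, changed by -0.98 ± 0.23 (adjusted p = 0.0075). Coelomic epithelium markers gave 1 higher of 7 tested, near the share of all genes (median -0.05), led by Wt1, with a sum between 8048 and 9261 with vehicle and between 7454 and 8934 with GPI. Wt1 made up most of that sum, with a mean of 7041 of 8636 with vehicle and 6403 of 8246 with GPI. The called gene of the list was Upk1b (0.68 ± 0.18, adjusted p = 0.0159), which was not called without embryo 3 (adjusted p = 0.0643). Mesonephric markers gave 3 lower of 5 tested (median -0.73), led by Emx2, with a sum between 1145 and 2209 with vehicle and between 736 and 1170.5 with GPI. Cdh1, an adhesion protein of epithelia, changed by -2.65 ± 0.44 (adjusted p = 5.76e-04).

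Neuron and neural crest genes, the cells in which guidance was first described, gave 1 higher and 1 lower of 6 tested, near the 11.1% and 11.9% of all tested genes (median -0.54). Their sum lay between 564 and 1103 with vehicle and between 431 and 791 with GPI, and Foxd3 had 0 counts in all 10 libraries. Tubb3 changed by 1.02 ± 0.23 (adjusted p = 0.00548) and the neurofilament gene Nefl by -2.90 ± 0.29 (adjusted p = 6.82e-06). In the other guidance genes and the effectors, sums lay between 18926 and 20667 with vehicle and between 16064 and 17562 with GPI, and between 34201 and 35866 and between 31719 and 34263, in that order. No gene of the 180 on the lists is a guidance gene of the symbol rule, and no gene is on more than 1 list.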
